A study of Mus musculus with 12 samples.

Results

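Tuft cells are rare chemosensory cells of the intestinal epithelium. They detect luminal metabolites and parasites with a taste-type signalling cascade that ends in the cation channel TRPM5. They answer with the cytokine interleukin 25 and with lipid mediators made from arachidonic acid, and their identity depends on the transcription factor POU2F3. The 10 genes described here were chosen by name as tuft cell genes: the kinase gene Dclk1, the channel gene Trpm5, the transcription factor genes Pou2f3 and Gfi1b, the cytokine gene Il25, the actin-binding protein gene Avil, the lipid mediator enzyme genes Alox5, Hpgds and Ltc4s, and Sh2d6, which encodes an SH2 domain protein. Of the 23420 genes with a row in the count files, 9 were members. Sh2d6 was not analysed here.

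RNA was sequenced from confluent monolayers of mouse colonic epithelial cells at day 3, day 4 and day 5 and from colonic crypts, giving 12 libraries, 3 for each group. The labels describe all material as WT mouse colon, from an age of 6-10 weeks. Crypt cells were expanded on collagen and replated on gradient cross-linked scaffolds, where the transepithelial resistance is labelled 526 ± 56 ohm cm2 for day 3, 623 ± 15 ohm cm2 for day 4 and 407 ± 53 ohm cm2 for day 5, with no word on what the error is. Crypts are the multicellular glands that line the colon, and monolayers were lysed whole. Nothing in the labels says whether the 3 libraries of a group had separate animals or cultures behind them, so p-values reflect no more than the spread among these samples, which may be technical. Total gene counts were 4518314 to 14290393 per library, and a floor of 3 counts stood for 0.215 to 0.604 CPM (read counts relative to library size, with TMM scaling). The number of genes with any read ran from 12293, in day 5 replicate 1, to 15250.

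Of the 9 analysed members, 5 were called lower in monolayers than in crypts and none higher (edgeR quasi-likelihood test, adjusted p under 0.05 over 12863 genes). They were Dclk1, Trpm5, Pou2f3, Alox5 and Hpgds. Across all genes tested, 63.5% were called, 32.8% lower and 30.7% higher, a split of 39.7% and 24.1% when libraries were scaled by their totals alone, which moved the median of all genes to -0.21. The members' 5 calls were the same in number under that scaling. Avil and Ltc4s were tested and not called, Gfi1b had too few counts to pass the filter, and Il25 had no count in any library. A gene that passes the filter only through its crypt level has to differ, so the 7 tested members are a description and not a sample of tuft cell genes. Their median log2 fold change was -5.36, beside -0.03 over all genes tested. In RNA from whole samples, fewer tuft cells and less of each RNA per tuft cell cannot be told apart.

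The starts of 4 member genes are shown and compared for the octamer ATGCAAAT, which POU factors are known to bind. Each runs from 250 bases before to 50 bases after the annotated start (RefSeq, GRCm38.p6), 5′ to 3′ on the gene's strand. Capitals mark the octamer or its shorter form ATGCAAA, searched on both strands, and the shorter form lies within the octamer. Trpm5, Alox5 and Hpgds were called lower, and Avil was not. Hpgds and Avil were the only members with a match. The starts of Dclk1, also called lower, held no match and are not shown.
Hpgds, chr6:65144681-65144980, minus strand: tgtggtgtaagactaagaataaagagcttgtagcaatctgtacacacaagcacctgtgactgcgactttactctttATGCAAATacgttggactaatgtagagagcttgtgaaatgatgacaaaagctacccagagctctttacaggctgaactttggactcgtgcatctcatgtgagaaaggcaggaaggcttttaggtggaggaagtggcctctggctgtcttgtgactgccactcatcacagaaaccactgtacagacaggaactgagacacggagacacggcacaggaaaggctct
Trpm5, chr7:143094593-143094892, minus strand: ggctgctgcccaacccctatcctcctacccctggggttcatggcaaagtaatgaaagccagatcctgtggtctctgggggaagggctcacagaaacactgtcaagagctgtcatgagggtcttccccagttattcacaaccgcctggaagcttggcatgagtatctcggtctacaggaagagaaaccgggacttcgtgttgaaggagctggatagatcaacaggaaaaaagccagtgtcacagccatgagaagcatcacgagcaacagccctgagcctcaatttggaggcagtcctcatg
Alox5, chr6:116461129-116461428, minus strand: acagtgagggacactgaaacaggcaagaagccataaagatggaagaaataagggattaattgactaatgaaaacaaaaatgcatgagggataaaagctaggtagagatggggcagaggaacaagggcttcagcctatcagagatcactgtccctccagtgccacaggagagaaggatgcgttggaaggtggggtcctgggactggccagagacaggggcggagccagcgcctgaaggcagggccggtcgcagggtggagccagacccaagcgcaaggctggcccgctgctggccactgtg
Avil, chr10:127000459-127000758, plus strand: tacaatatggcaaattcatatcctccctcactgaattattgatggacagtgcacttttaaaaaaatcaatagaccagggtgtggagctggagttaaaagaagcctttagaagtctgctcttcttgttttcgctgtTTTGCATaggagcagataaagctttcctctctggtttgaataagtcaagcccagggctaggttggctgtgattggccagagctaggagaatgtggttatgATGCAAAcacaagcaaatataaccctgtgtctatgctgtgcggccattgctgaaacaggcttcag
The table held 9 starts for 8 of the 10 members. Pou2f3 and Il25 had no entry. Hpgds carried the octamer from -174 to -167 before its start, and no other member start did. Avil carried the shorter form at -115 to -109 on the opposite strand and at -15 to -9 on its own. Over all 32851 starts in the table, 1.74% held the octamer and 4.63% the shorter form. A match describes these letters only.

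Pou2f3, the regulator that tuft cells require, was the only transcription factor of the list that could be tested. Day 4 replicate 1 held 4 reads, or 0.344 CPM, and the other monolayer libraries held none. Crypt libraries held 15, 10 and 11 reads, or 3, 1.3 and 0.992 CPM. All monolayer libraries therefore lay below all crypt libraries, a pattern that 23.2% of all genes tested shared. Over pooled reads the level was lower by a ratio of 34 (exact 95% interval 12.2 to 131, counting error only). The fitted log2 fold change was -5.9 ± 1.08 (SE, edgeR adjusted p = 0.000243), and -7 without day 4 replicate 1. By day, the level was at least 18.8-fold lower at day 3 (edgeR adjusted p = 0.00233) and at least 11.1-fold lower at day 5 (0.00576), against a floor of 3 counts over the 3 libraries. At day 4 it was 11.6-fold lower (4.15 to 44.8, fitted change -3.63, edgeR adjusted p = 0.021). Without day 4 replicate 1 the fitted change was -7, as it was over all days. No monolayer read was then left, so the size of -7 comes from the small count added in the fit. The call was lost without crypts replicate 1 (0.0803), day 4 replicate 2 (0.0936) or day 4 replicate 3 (0.0902).

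Gfi1b, a zinc finger repressor of blood lineages that tuft cells also express, was near the limit of detection. It had no read in monolayers and 1, 3 and 0 reads in crypts. The pooled level was at least 5.03-fold lower against the floor. Without a filter on low counts, its edgeR adjusted p was 0.0413 over all days, resting on 4 crypt reads. By day it was 0.177 at day 3, 0.2 at day 4 and 0.255 at day 5. A noncoding gene overlaps it in the reference annotation. Il25, the cytokine by which tuft cells alert innate lymphoid cells, had 0 reads in all 12 libraries, so no comparison was possible at this depth.

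Dclk1, a microtubule-associated kinase used as the standard marker of tuft cells, had the largest pooled ratio of the 5 called members. Monolayer libraries ran from 0 over a median of 0 to 0.717 CPM, and 4 of 9 had any read. Crypt libraries stood at 20.2, 11.1 and 18.6 CPM. All monolayer libraries lay below all crypt libraries, as for 23.2% of all genes tested. The pooled level was 87-fold lower (53.7 to 151), and the fitted change was -6.84 ± 0.58 (edgeR adjusted p = 6.3e-09). It was -7.63 without day 3 replicate 2, which held 10 of the 17 monolayer reads, and -8.18 without day 5 replicate 2, which held 5. The ratio was 55.8 at day 3 (30.8 to 113), 505 at day 4 (90.1 to 20000, from 1 read) and 72.3 at day 5 (30.7 to 224), each called against crypts. The fitted changes were -5.8 for day 3, -8.51 for day 4 and -6.2 for day 5. In that order they were -8.2 without day 3 replicate 2, -10.26 without day 4 replicate 1 and -10.27 without day 5 replicate 2. Day 4 and day 5 then held no read, so the size of -10.26 and -10.27 comes from the small count added in the fit. No difference between days passed the test (edgeR adjusted p = 0.428 to 0.843). In the reference annotation Dclk1 overlaps 2 noncoding genes and a small nuclear RNA gene, and since the strand setting of the counting is not given, reads of these cannot be told apart.

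Trpm5 encodes the calcium-activated channel that depolarises tuft and taste cells. In monolayers it ran from 0 over a median of 0.0717 to 3.63 CPM. It reached 13.8, 4.17 and 10.4 CPM in crypts. All monolayer libraries lay below all crypt libraries, as for 23.2% of all genes tested. Day 5 replicate 1, with 18 of the 26 monolayer reads, came close to crypts replicate 2. Over all days the pooled level was lower by a ratio of 31.4 (20.8 to 49.1), with a fitted change of -5.36 ± 0.81 (edgeR adjusted p = 1.18e-05). This fitted value moved to -6.39 when day 5 replicate 1 was left out and to -6.53 when day 4 replicate 3 was. The ratio was 169 at day 3 (46.2 to 1400, from 2 reads), 69.5 at day 4 (26.8 to 257) and 9.96 at day 5 (6.29 to 16.6). At day 5 the fitted change was -2.99 ± 1.03 (edgeR adjusted p = 0.0194). That call was lost without day 5 replicate 2 (0.0575), day 5 replicate 3 (0.0788), crypts replicate 1 (0.0698) or crypts replicate 3 (0.0561). Without day 5 replicate 1 the change was -6.07 (0.000425). Day 4 replicate 3 held all 4 reads of its day, and without it the day 4 change of -5.97 ± 1.26 was -9.49. No day 4 read was then left, so the size of -9.49 comes from the small count added in the fit. The day 4 change moved to -5.33 when day 4 replicate 1 was left out and to -5.37 when day 4 replicate 2 was.

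**Figure D1:**
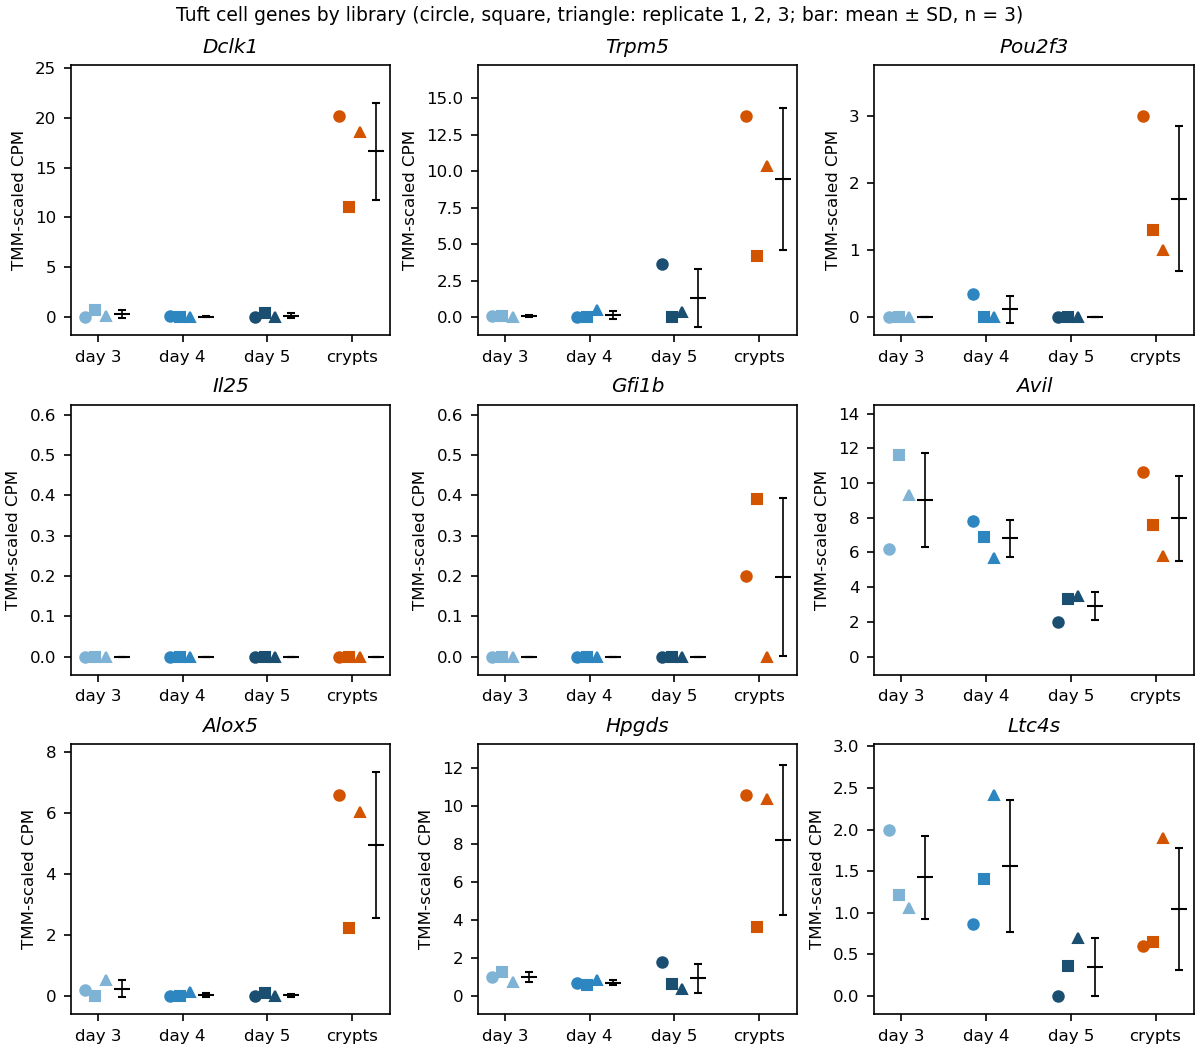
TMM-scaled CPM (vertical axis) of the 9 analysed tuft cell genes in each library of day 3, day 4, day 5 and crypts, with the mean ± SD of 3 libraries beside each group. Dclk1, Trpm5, Pou2f3, Alox5 and Hpgds lie lower in every monolayer library than in any crypt library, as do 23.2% of all genes tested. Avil overlaps the crypts at day 3 and day 4, and Ltc4s overlaps them at day 3, day 4 and day 5.

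Of the lipid mediator enzymes, Alox5 and Hpgds were called lower and Ltc4s was not. For Alox5, the lipoxygenase that opens leukotriene synthesis, monolayer libraries ran from 0 over a median of 0 to 0.53 CPM, and 4 of 9 held any read. Crypt libraries stood at 6.6, 2.22 and 6.04 CPM, above all of them, a pattern that 23.2% of all genes tested shared. It was 40.1-fold lower (21.6 to 82.6), with a fitted change of -5.81 ± 0.75 (edgeR adjusted p = 1.99e-06). That value moved to -6.42 when day 4 replicate 3 was left out and to -6.5 when day 5 replicate 2 was. Day 3 held 9 of the 11 monolayer reads, with a change of -4.27 ± 0.96 (edgeR adjusted p = 0.000904). The day 3 change moved to -3.67 when day 3 replicate 2 was left out and to -5.59 when day 3 replicate 3 was. At day 4 and day 5, from 1 read each, the ratios were 151 (26.5 to 6000) and 108 (19 to 4300), and those reads lay in day 4 replicate 3 and day 5 replicate 2. The fitted values of -6.73 and -6.44 were -8.56 and -8.52 without those libraries. Their days then held no read, so the size of -8.56 and -8.52 comes from the small count added in the fit. An uncharacterised noncoding gene overlaps Alox5 in the reference annotation.

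Hpgds, the hematopoietic prostaglandin D synthase, kept reads in every monolayer library. These ran from 0.346 over a median of 0.757 to 1.81 CPM, and crypt libraries stood at 10.6, 3.65 and 10.4 CPM. All monolayer libraries lay below all crypt libraries, as for 23.2% of all genes tested. The level averaged 0.881 ± 0.441 CPM in monolayers (SD, n = 9) and 8.21 ± 3.95 CPM in crypts (n = 3), a change of -3.25 ± 0.45 (edgeR adjusted p = 3.95e-06). The change was -2.99 ± 0.62 at day 3, -3.54 ± 0.65 at day 4 and -3.2 ± 0.66 at day 5, each called, and the day 5 value was -3.96 without day 5 replicate 1. No difference between the 3 days passed the test (edgeR adjusted p = 0.81 to 0.869).

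Ltc4s, which joins glutathione to the leukotriene that ALOX5 begins, was not called lower on any day. It stood at 2, 1.22 and 1.06 CPM at day 3, at 0.861, 1.4 and 2.42 CPM at day 4, at 0, 0.358 and 0.693 CPM at day 5, and at 0.6, 0.652 and 1.89 CPM in crypts. The groups overlapped. Over all days it averaged 1.11 ± 0.761 CPM in monolayers (SD, n = 9) and 1.05 ± 0.732 CPM in crypts (n = 3). The change was -0.24 ± 0.65 (edgeR adjusted p = 0.765) and turned to 0.55 without crypts replicate 3, which held 21 of the 29 crypt reads. Both signs lie within this error. All day 5 libraries lay below those of day 3 and day 4, but neither difference passed the test (-1.93 ± 0.89, edgeR adjusted p = 0.141, against day 3, and -2.06 ± 0.89, 0.183, against day 4). Without day 5 replicate 3 they were -2.61 and -2.73, also not called.

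Avil, which encodes advillin, an actin-bundling relative of villin, differed between monolayer days. It stood at 6.19, 11.6 and 9.31 CPM at day 3, at 7.83, 6.91 and 5.69 CPM at day 4, at 2.01, 3.31 and 3.46 CPM at day 5, and at 10.6, 7.56 and 5.77 CPM in crypts. Day 3 and day 4 overlapped the crypts, and day 5 lay below all other libraries. Over all days it averaged 6.26 ± 3.08 CPM in monolayers (SD, n = 9) and 7.98 ± 2.45 CPM in crypts (n = 3), with no call (-0.47 ± 0.28, edgeR adjusted p = 0.162). Against crypts the change was 0.2 ± 0.34 at day 3 (edgeR adjusted p = 0.634), -0.2 ± 0.35 at day 4 (0.642) and -1.4 ± 0.38 at day 5 (0.00397). The direction at day 3 turned without day 3 replicate 2 (-0.01) and that at day 4 turned without crypts replicate 1 (0.05). Day 5 changed by -1.6 ± 0.37 against day 3 (edgeR adjusted p = 0.00424), in a comparison where 20.4% of all genes tested were called, 10.5% lower and 9.9% higher. Against day 4 the difference of -1.19 ± 0.37 did not pass (edgeR adjusted p = 0.0596) and passed without crypts replicate 1 (0.0454) or crypts replicate 3 (0.0473).

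**Figure D2:**
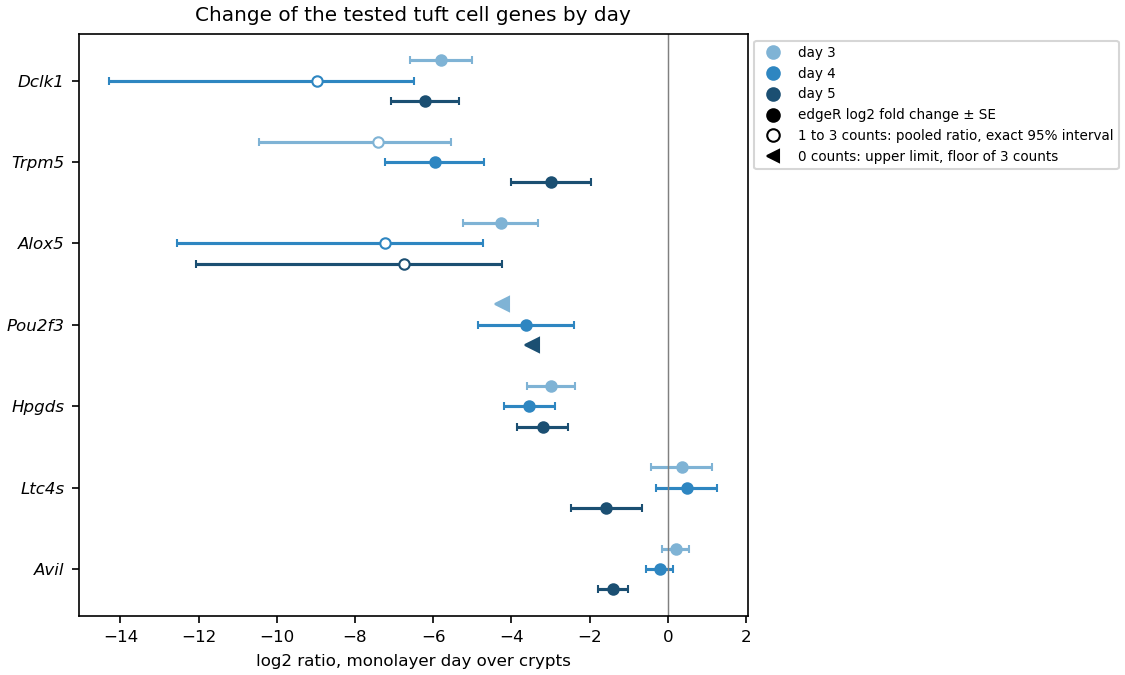
Log2 ratio of each monolayer day over crypts (horizontal axis) for the 7 tested tuft cell genes. Filled points are edgeR estimates ± SE, open points are pooled ratios with exact 95% intervals where a day held 1 to 3 reads, and triangles are upper limits for days with 0 reads. Dclk1, Trpm5, Alox5, Pou2f3 and Hpgds lie left of 0 on all 3 days, and Avil lies near 0 until day 5 (-1.4).

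By day, 5 members were called lower than crypts at day 3, the same number at day 4 and 6 at day 5, where Avil was called too. At day 5 the count was 5 by DESeq2, where Trpm5 was lost (adjusted p = 0.159), and 5 with only the groups compared or with a filter at a mean of 1 CPM, where Pou2f3 was not tested. At day 4 it was 4 without a filter, where Pou2f3 was lost (0.0839), and 4 with the 1 CPM filter. The share of all genes called lower was 27.9% at day 3, 28.4% at day 4 and 28.9% at day 5. These comparisons share the 3 crypt libraries. Between day 4 and day 3, 0 members were called by edgeR, beside 2.77% of all genes in either direction, with 0 at an unadjusted p under 0.05 and 0 by DESeq2. Between day 5 and day 4 edgeR called 0 members, beside 7.56% of all genes, 4.2% lower and 3.36% higher. There 3 members had an unadjusted p under 0.05 (Avil, Ltc4s and Trpm5), and DESeq2 called Avil. The Trpm5 difference of day 5 from day 3, 20 reads against 2 reads, did not pass either (edgeR adjusted p = 0.057), although it did without day 5 replicate 2 (0.0154), day 5 replicate 3 (0.0469) or crypts replicate 2 (0.0432). All but 2 of those 20 reads lay in day 5 replicate 1, and without that library the change of 4.14 was 1.06 (edgeR adjusted p = 0.759).

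The 9 analysed members summed to 9.06 ± 3.17 CPM in monolayers (SD, n = 9) and 50.2 ± 17.6 CPM in crypts (n = 3). Monolayer libraries ran from 4.84 to 14.9 CPM and crypt libraries from 31 to 65.6 CPM, so the groups did not overlap. Avil made up 67.4 ± 16.7% of the sum in monolayers and 17.1 ± 6.89% in crypts. In day 5 replicate 1 its share was 27%, the lowest among monolayers, beside the Trpm5 reads given above. Without Avil the sum was 2.8 ± 1.31 CPM in monolayers and 42.2 ± 16.6 CPM in crypts. These sums are descriptions with no test.

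**Figure D3:**
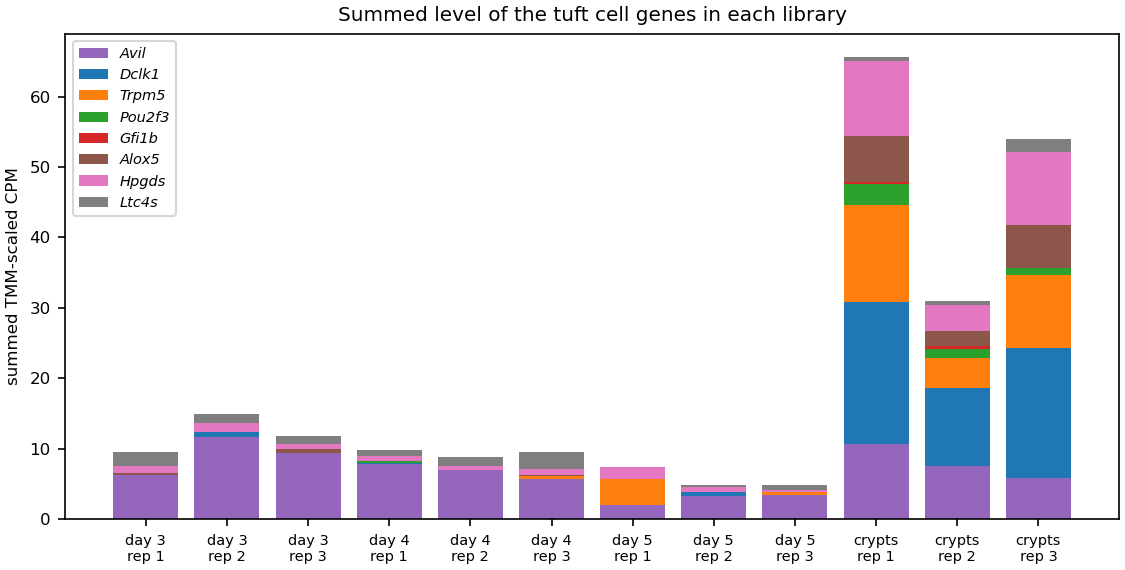
Summed TMM-scaled CPM (vertical axis) of the tuft cell genes in each of the 12 libraries, stacked by gene, with Il25 left out because it had no read. Avil makes up most of the bar in 8 of 9 monolayer libraries, and crypts replicate 2 (31 CPM) has the shortest crypt bar.

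Among crypts, replicate 2 had the lowest level of 4 members, Dclk1, Trpm5, Alox5 and Hpgds. The highest crypt library exceeded the lowest by 1.82-fold for Dclk1, 3.31-fold for Trpm5, 2.98-fold for Alox5 and 2.91-fold for Hpgds. Pou2f3 and Avil were lowest in replicate 3 and Ltc4s in replicate 1. Per kilobase of annotated exon (GENCODE M21), the crypt levels ran in the order Avil (2.44 ± 0.75 CPM per kb, SD, n = 3), Hpgds (2.36 ± 1.14), Trpm5 (2.29 ± 1.18), Alox5 (1.76 ± 0.846), Ltc4s (1.61 ± 1.12), Dclk1 (1.21 ± 0.354), Pou2f3 (0.651 ± 0.399) and Gfi1b (0.108 ± 0.107). Each neighbouring pair in this order down to Pou2f3 overlapped across libraries. In monolayers on the same scale Avil (1.92 ± 0.942 CPM per kb, SD, n = 9) and Ltc4s (1.71 ± 1.17) overlapped, and Hpgds (0.253 ± 0.127) and all others averaged lower than both. The authors' annotation is not given, so the exon lengths may not match their counting.

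Further genes of tuft cell biology were taken from lists chosen by role. Their counts are descriptions, to be read against the 32.8% of all genes tested that were called lower and the 30.7% called higher. In each list, a gene with few reads in monolayers or in crypts passed the filter through the other group and so had to differ. In the taste cascade 4 of 12 genes could be tested, with 2 lower and 1 higher, a share near that of all genes. Plcb2, the phospholipase upstream of TRPM5, was at 0.0999 ± 0.248 CPM in monolayers and 4.97 ± 2.99 CPM in crypts, a ratio of 38.5 downwards (interval 20.1 to 82.7) with an edgeR adjusted p of 1.74e-05. Its fitted change of -6.31 moved to -7.05 without day 3 replicate 3 and -7.75 without day 4 replicate 2. Trpm4, a channel related to Trpm5 with wide expression, changed by -0.99 ± 0.07, at 89.6 ± 25 CPM in monolayers and 173 ± 2.06 CPM in crypts (edgeR adjusted p = 1.16e-09). Itpr3, the calcium release channel of the cascade, was higher by 0.27 ± 0.07 (edgeR adjusted p = 0.00181), at 453 ± 23.9 CPM in monolayers and 375 ± 17.4 CPM in crypts, a call lost when libraries were scaled by totals (0.09, adjusted p = 0.278).

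Of the 12 further regulators 8 were tested, 5 were lower and 1 higher, beside 63.5% of all genes called in either direction. Atoh1, which opens secretory fate, and Gfi1, which acts after it in secretory cells, were 908-fold (interval 440 to 2260, edgeR adjusted p = 2.82e-14) and 273-fold lower (105 to 1010, edgeR adjusted p = 9.26e-09). Their fitted changes of -10.44 and -8.2 moved to -11.19 and -9.24 without day 5 replicate 3, and Gfi1 to -8.93 without day 3 replicate 2. Atoh1 and Gfi1, with 7 and 4 monolayer reads, passed the filter through their crypt level and so had to differ. Ascl2, a stem cell factor, was at 0.503 ± 0.342 CPM in monolayers and 5.56 ± 2.38 CPM in crypts (-3.56 ± 0.56, edgeR adjusted p = 1.81e-05; -4.9 without day 5 replicate 2). Runx1, a blood lineage factor also present in epithelia, was higher by 1.66 ± 0.13 (edgeR adjusted p = 1.89e-09).

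Of the receptors and signals of the type 2 circuit, 4 of 5 tested were higher and 0 lower, beside 30.7% of all genes called higher, with a median log2 fold change of 1.48. With libraries scaled by totals, 4 were higher and 1 lower. Il33 and Il17rb, with 26 and 14 crypt reads, passed the filter through their monolayer level and so had to differ. Il33, an epithelial alarmin, was at 57 ± 27.3 CPM in monolayers and 1.55 ± 2.31 CPM in crypts (5.46 ± 0.46, edgeR adjusted p = 7e-09; 7.52 without crypts replicate 1). Il17rb, the receptor chain for interleukin 25, was at 4.49 ± 1.6 CPM in monolayers and 0.571 ± 0.167 CPM in crypts (2.91 ± 0.53, edgeR adjusted p = 9.1e-05). Il4ra, the shared receptor chain for interleukins 4 and 13, was higher by 1.48 ± 0.12 (edgeR adjusted p = 5.15e-09). Stat6, which relays that signal, was higher by 0.62 ± 0.09 (edgeR adjusted p = 4.08e-06).

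Of 14 further eicosanoid genes 10 were tested, with 5 lower and 3 higher, beside 32.8% and 30.7% of all genes. Ptgs2, the inducible cyclooxygenase, was at 185 ± 60.2 CPM in monolayers and 0.0601 ± 0.104 CPM in crypts, a ratio of 2320 (643 to 19200, edgeR adjusted p = 4.04e-16). Crypts replicate 3 held both of its crypt reads, and without that library the fitted change of 10.83 was 13.69. No crypt read was then left, so the size of 13.69 comes from the small count added in the fit. Ptges, the prostaglandin E synthase, was higher by 6.22 ± 0.35 (edgeR adjusted p = 1.96e-11), or 6.88 without crypts replicate 1. Ggt1, which trims leukotriene C4, was 22.6-fold lower (interval 13.5 to 40.4) with an edgeR adjusted p of 6.66e-06, and Mgst2, a microsomal enzyme that can make leukotriene C4, changed by -1.87 ± 0.13 (edgeR adjusted p = 3.64e-10).

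Genes of immune-type signalling that tuft cells share with leukocytes were lower for 12 of 14 tested, with 0 higher and a median log2 fold change of -6.12, beside 32.8% of all genes called lower. Those with few monolayer reads passed the filter through their crypt level and so had to differ. Pik3r5, a regulatory subunit of phosphoinositide 3-kinase gamma, was lower by a ratio of 557 (153 to 4620), the adaptor gene Fyb by 177 (85.1 to 445) and the GTPase gene Rac2 by 106 (34.9 to 523), each called. The fitted changes moved from -9 to -9.94 for Pik3r5 without day 5 replicate 2 and from -8.63 to -10.06 for Fyb without day 4 replicate 3. For Rac2 the change moved from -7.34 to -8.21 without day 3 replicate 2. Each gene then had no monolayer read left, so the size of these values comes from the small count added in the fit. Of the 4 acetylcholine genes only the esterase gene Ache was tested, at 2.97 ± 0.56 CPM in monolayers and 7.76 ± 4.79 CPM in crypts (-1.41 ± 0.34, edgeR adjusted p = 0.00153), a call lost without crypts replicate 3 (-0.78, 0.103). Of the structural and surface genes 5 were lower and 4 higher of 9 tested, and calls over all genes also fell on both sides (32.8% lower, 30.7% higher). Tppp3, which bundles microtubules, was 91.8-fold lower (58.1 to 154, edgeR adjusted p = 2.19e-09), with a fitted change of -6.78, or -7.44 without day 4 replicate 1. Kctd12, a receptor-associated protein gene, changed by -4.82 ± 0.32 (edgeR adjusted p = 1.99e-10) and Espn, an actin bundler, by -2.52 ± 0.15 (edgeR adjusted p = 4.47e-11). Nebl, of actin filaments, was higher by 3.69 ± 0.31 (edgeR adjusted p = 6.27e-09).

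**Figure D4:**
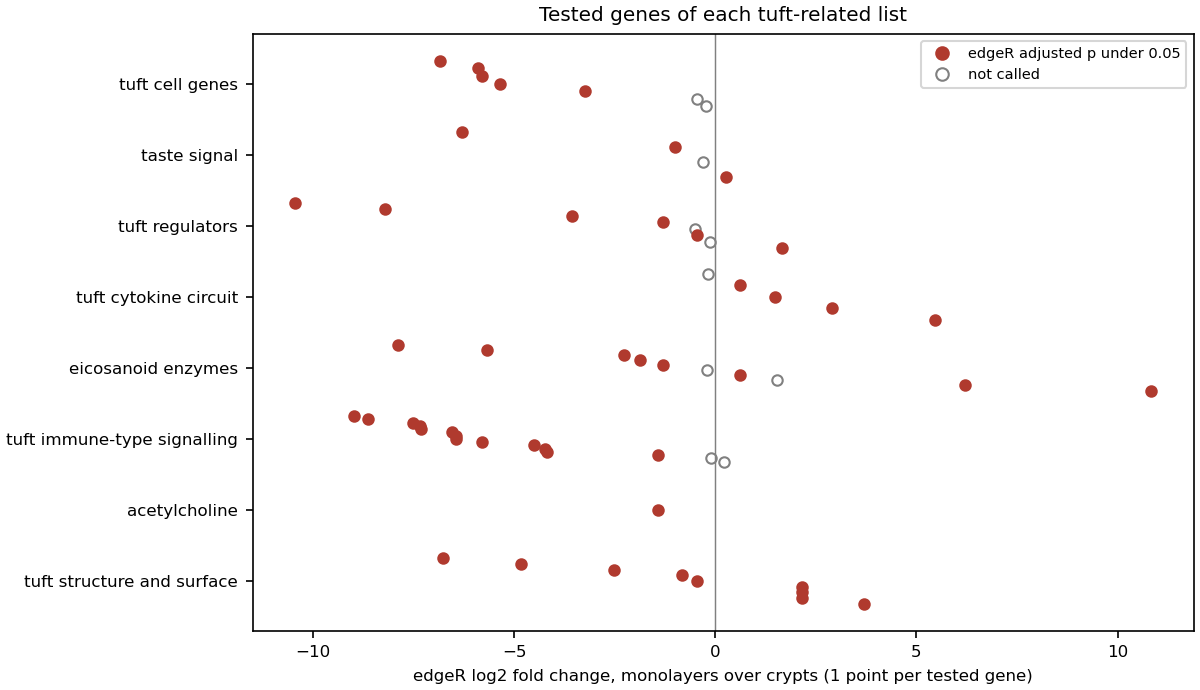
EdgeR log2 fold change of monolayers over crypts (horizontal axis) for each tested gene of the tuft-related lists, filled where the adjusted p was under 0.05. Immune-type signalling genes lie mostly left of 0 (12 of 14 lower, beside 32.8% of all genes), where those with few monolayer reads passed the filter through crypts. Tested genes of the type 2 cytokine circuit lie mostly right of it (4 of 5 higher, beside 30.7%), where those with few crypt reads passed the filter through monolayers.

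A set of 10 genes from these lists had at least 10 reads in crypts and none in any monolayer library. It was picked after the values were seen. Alox5ap, which presents arachidonic acid to ALOX5, had 10, 23 and 48 crypt reads and was at least 102-fold lower. Gnat3, the taste G protein gustducin, had 11, 12 and 6 (at least 36.5-fold), and Chat, which makes acetylcholine, had 12, 2 and 6 (at least 25.2-fold). The kinase gene Bmx (at least 65.4-fold) and the receptor gene Cd300lf (at least 35.2-fold) were also in the set. Rgs13, a brake on G protein signalling, had 5, 3 and 52 crypt reads, so its at least 75.5-fold rests on crypts replicate 3. The others were Trim38, Hmx3, Alox15 and Nrgn. They are 17.5% of the 57 list genes with at least 10 crypt reads, beside 1.74% of all 13410 such genes. The lists were chosen with earlier results of these data known, and the 13410 genes were not matched to them for crypt level. These shares are descriptions, and their difference was not tested.

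Markers of other cell types are given for each list, since some of these cells can express members. Pan-leukocyte markers summed to 4.16 to 8.17 CPM in monolayers and 23.5 to 51.2 CPM in crypts, with 5 of 6 genes read in monolayers and 6 of 6 in crypts, and Cd52 at 0 in monolayers. Lcp1 (4.6 CPM) and Laptm5 (1.44 CPM) made up most of the monolayer sum. Ptprc averaged 0.232 CPM in monolayers and 16.95 CPM in crypts. Within crypts the pan-leukocyte sum was lowest in replicate 3 (23.5 CPM), as were Pou2f3 and Avil. The tuft sum was lowest in replicate 2 (31 CPM), as was the mast cell and basophil sum (95 CPM). Mast cell and basophil markers summed to 0 to 1.29 CPM in monolayers and 95 to 142 CPM in crypts. In crypts 97 to 100% of that sum was Kit, which deep crypt secretory cells also express, and Cpa3, Fcer1a, Ms4a2, Mcpt4, Mcpt8, Tpsb2 and Hdc were at 0. Eosinophil markers summed to 63.7 to 112 CPM in monolayers, nearly all of it Il5ra, and to 1.8 to 2.61 CPM in crypts, where Epx, Prg2, Ccr3 and Il5ra were at 0.

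Macrophage markers summed to 42.5 to 90.7 CPM in monolayers and 12.2 to 36.6 CPM in crypts, with C1qa, C1qb and C1qc at 0 in monolayers. Cd68 (31.3 CPM) and Mrc1 (23.6 CPM) made up most of the monolayer sum, and Cd14 (17.7 CPM) most of the crypt sum. Lymphocyte markers summed to 0 to 0.538 CPM in monolayers and 8.29 to 17.1 CPM in crypts, with 9 of 9 genes read in crypts. Enteroendocrine markers summed to 22.2 to 51 CPM in monolayers and 584 to 1368 CPM in crypts, and fibroblast markers to 0.0998 to 3.02 CPM in monolayers and 12.1 to 86.1 CPM in crypts. Platelet and erythroid markers summed to 3.03 to 7.88 CPM in monolayers and 8.74 to 12.6 CPM in crypts. Neuron and glia markers summed to 2.9 to 7.53 CPM in monolayers and 3.26 to 9.56 CPM in crypts, with Sox10 at 0 in both. Epithelium markers summed to 9157 to 11800 CPM in monolayers and 8608 to 9916 CPM in crypts, and all 6 were read in every library. The part of leukocytes, fibroblasts or endocrine cells in the member differences was not tested.

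**Figure D5:**
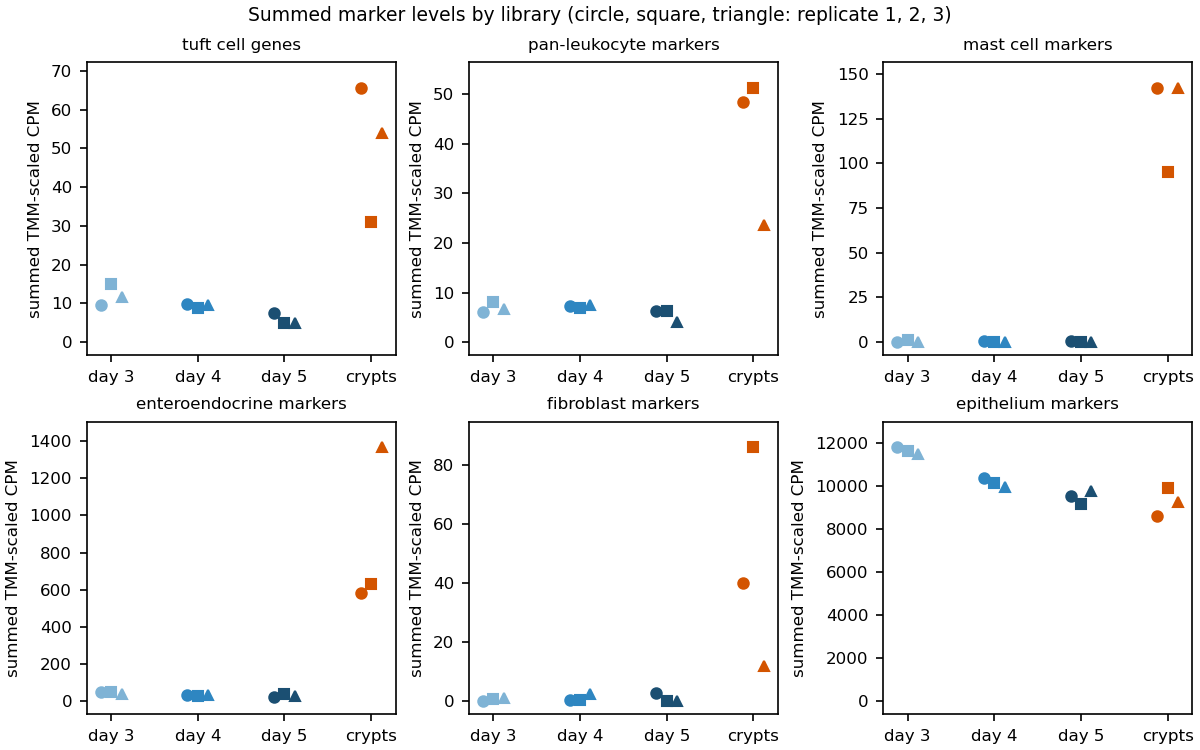
Summed TMM-scaled CPM (vertical axis) of the tuft cell genes and 5 marker lists in each library, with the replicate given by the symbol. Among crypts the tuft sum (31 CPM) and the mast cell and basophil sum (95 CPM) are lowest in replicate 2. In crypts 97 to 100% of the mast cell and basophil sum is Kit. The pan-leukocyte (23.5 CPM) and fibroblast (12.1 CPM) sums are lowest in replicate 3 and the enteroendocrine sum (584 CPM) in replicate 1. Epithelium markers overlap between monolayers and crypts.

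Genes whose profile over the 12 libraries lay closest to Pou2f3 and Dclk1 were found among 11934 named genes by the root mean square difference of centred log2 CPM (prior count 2). For Pou2f3 they were Ptpn7 (0.272), Id1 (0.405) and Gpc6 (0.41), and for Dclk1 they were Insrr (0.513), Pik3r5 (0.601) and Rtn4rl1 (0.619). Pik3r5 is also in the immune-type list. The prior count compresses profiles with few reads such as that of Pou2f3, so a gene with a smaller fold and more reads can lie near it: Id1 was at 13.3 ± 2.3 CPM in monolayers and 79.7 ± 17.7 CPM in crypts. Insrr was at 0.0403 ± 0.0957 CPM in monolayers and 10.7 ± 0.662 CPM in crypts.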

How the data were processed

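Total RNA of 12 libraries was analysed from the counts deposited by the authors, whole numbers of reads per gene symbol with no normalization, 1 file per library. The tools listed are HTSeq, TopHat2 and CASAVA 1.9, per the submitters' processing notes, which give mm9 and mm10 as builds but no role for either. The sources used here name no annotation and no strand setting. The 5 summary lines of each file were left out. Reads in no gene were 38.7 to 42.8% of all reads in monolayers and 45.6 to 49% in crypts, with no overlap. Samples were grouped by their labels, which name no batch.

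In R 4.3.3 with edgeR 4.0.16, 12863 genes passed filterByExpr (minimum count 10). Libraries were scaled by TMM, with factors of 0.91 to 1.002 in monolayers and 1.076 to 1.116 in crypts. The quasi-likelihood test was run in 1 fit of all 12 libraries with group as its term. P-values were Benjamini-Hochberg adjusted over all genes tested, and calls were made under 0.05. SE came from the fold change and F statistic. Where a group held no read, the size of its fitted change came from the small count added in the fit. This also holds for a day with no read within the mean of all 3 days. Pooled ratios carry exact 95% intervals, which like floors cover counting error only. No pair of libraries within a group agreed within sampling noise. DESeq2 1.42.0, other scalings and filters, a replicate block, the groups compared alone and leaving out each library were alternatives. The code was checked on simulated counts.

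The members and lists were chosen with earlier results of these data known. Named beyond the members were from each role list up to 4 called genes averaging 1 CPM or more, by size of change, and the 3 closest profiles to Pou2f3 and Dclk1. Some genes that this rule would name are not reported here.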

Additional observations from a re-analysis of the deposited data

Results flagged for a closer look

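Of the 7 members screened over the 9 monolayer libraries, 3 had a library far from the others. For normally spread values of a single group, chance alone marks about 1 in 20. That rate need not hold here, since the 9 libraries span 3 days and values near 0 make such a gap easy to reach. Trpm5 stood at 3.63 CPM in day 5 replicate 1, where the next library had 0.484 CPM, and that library also had the fewest genes with a count, 12293. Pou2f3 stood at 0.344 CPM in day 4 replicate 1, where all others had 0, so it had to be marked. Alox5 stood at 0.53 CPM in day 3 replicate 3, where the next had 0.2 CPM. Avil differed between monolayer days, with a log2 change of -1.6 for day 5 against day 3 (edgeR adjusted p = 0.00424). All 3 day 5 libraries lay below all 3 day 3 libraries.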

How the results depend on the processing

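The 5 members called lower in monolayers than in crypts were 5 in number in each fit without 1 library, and 7644 to 8723 of all genes were then called. With a filter at a mean of 1 CPM, Pou2f3 was no longer tested and the count was 4, and without a filter it was 6, with Gfi1b. Of 759 recomputed member fold changes, 731 kept their direction and side of the threshold, 11 turned round, 9 lost the call and 8 gained one, not counting settings that left a member untested. The 759 include values at a prior count of 2, which leaves p-values as they are and so could change no call. Genes called for day 4 against day 3 were 356, against 627 with DESeq2, 636 without a filter, 1144 with only the groups compared, and 94 to 490 without 1 library. For day 5 against day 4 genes called ran from 536 to 1207 without 1 library, and members called lower from 0 to 1, with 1 by DESeq2. Members called higher without a filter were 1 (Trpm5) for day 5 against day 4 and 1 for day 5 against day 3, and for the second 0 to 1 without 1 library. Trpm5 at day 5 against crypts was not called by DESeq2 (-2.88, adjusted p = 0.159), nor Pou2f3 at day 4 without a filter (-3.7, 0.0839). With a prior count of 2 the fitted change of Dclk1 in monolayers was -5.51, of Trpm5 -4.24, of Pou2f3 -2.97, of Alox5 -4.08, of Plcb2 -4.11, of Pik3r5 -5.84, of Fyb -5.7 and of Rac2 -4.19, and other genes with few monolayer reads were also drawn towards 0. For 29 further genes named from role lists or profiles, chosen for recomputing after seeing the data, 547 of 549 values kept direction and call. The 549 also include those at a prior count of 2. Values that turned round were not called, and their causes were not tested. Leaving out 1 library, the log2 change ran from -0.49 to 0.55 for Ltc4s in monolayers, from -0.01 to 0.45 for Avil at day 3 and from -0.4 to 0.05 at day 4, each against crypts. It ran from -0.33 to 0.44 for Ltc4s at day 4 against day 3 and from -0.97 to 0.15 for Hpgds at day 5 against day 3. At day 5 against day 4 it ran from -0.42 to 0.7 for Hpgds and from -0.1 to 6.51 for Trpm5. No day 4 read of Trpm5 was left at the value of 6.51. Labels number the replicates 1 to 3 in each group, but samples of the same number did not deviate together (correlations -0.0336 to 0.0585 over 18 pairs). With a replicate block 7996 genes were called for monolayers against crypts, and Ltc4s at day 4 against day 3 turned to -0.07. Depth limits Gfi1b, Il25 and the days on which a member had 0 to 3 reads.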
